A study of Rattus norvegicus with 108 samples.

Results

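The proteasome subunit genes were examined in single-cell RNA profiles of the rat dentate gyrus. The rule took every row of the count tables whose symbol is Psma, Psmb, Psmc, Psmd, Psme or Psmg followed by a digit. It found 48 rows among 19127 genes, with 19655 UMIs (unique molecular identifiers, 1 for each captured RNA molecule) in the dorsal dentate gyrus (dorDG) and 29413 in the ventral dentate gyrus (venDG). The rows are 47 symbols and a further Psmb6 row, Psmb6.1. By role they are 8 alpha-ring rows, 8 constitutive beta-ring rows, 4 immune or thymic catalytic subunits, 6 ATPases, 11 non-ATPase subunits and 3 assembly chaperones of the 19S regulator, 4 activators and 4 assembly chaperones of the 20S core.

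Male Long-Evans rats from the breeder Charles River, aged 2 months, drank fluoxetine, a serotonin reuptake inhibitor, at 18 mg per kg of body weight for 6 weeks (FT) or plain water (Sham). Tissue was punched from dorDG and venDG, and the study pooled several animals into each replicate. The dorDG FT group had 4 replicates with 570 cells, dorDG Sham 5 with 719, venDG FT 5 with 1249 and venDG Sham 5 with 809. Replicates held 42 to 384 cells, and the labels do not say how the pools of one group were kept apart, so p-values measure the spread between these pools. The labels speak of nuclei, whereas the methods describe whole cells and nuclei from portions of the same tissue. In 8 replicates the labels name 2 capture reactions, called here the first and the second in the order of their names, and no source used here says which held cells and which held nuclei. Of 3347 cells, 1226 carried under 2% ribosomal protein UMIs (ribosome-poor cells) and 2121 carried at least 2% (ribosome-rich cells). In all, 9 of 3338 barcodes occurred in more than 1 reaction.

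The proteasome is the cell's main machine for degrading proteins tagged with ubiquitin. Its 20S core is a barrel of alpha rings, which gate the entry, around beta rings, whose subunits Psmb5, Psmb6 and Psmb7 cut the substrate. The 19S regulator recognises, unfolds and feeds in tagged proteins by its Psmc ATPases and Psmd subunits, while the activators Psme1 and Psme2 (PA28 alpha and beta), Psme3 (PA28 gamma) and Psme4 (PA200) open the core without it. Interferon induces Psmb8, Psmb9 and Psmb10, which replace the cutting subunits in the immunoproteasome, and microglia, the macrophages of the brain, are among the cells that carry it. Psmb11 is the catalytic subunit of the thymus.

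Promoter sequences of members are shown because 2 short motifs are tied to these roles in textbooks. The antioxidant response element (ARE, TGACNNNGC) is bound by the factors Nfe2l1 and Nfe2l2 and is known from the constitutive subunits. The interferon-stimulated response element (ISRE, GAAA, any 2 bases, GAAA) is known from interferon-induced genes. Both strands of the 250 bases before the gene start were searched in RefSeq sequences of the assembly GRCr8, which held 42 of the 47 member symbols. An ARE was present in 7 of 42 members (16.7%) and in 10.17% of all 27457 promoters, an ISRE in 5 of 42 (11.9%) and in 3.29% of all. The box CCAAT was present in 19 of 42 (45.2%) and in 34.3% of all, and the interferon gamma motif GAS (TTCNNNGAA) in 4 of 42 (9.52%) and in 7.52% of all. Capitals mark the motif, and each stretch reads 5′ to 3′ along the gene. The constitutive cutting subunits Psmb5 and Psmb6 and the beta-ring subunit Psmb2 are shown for the ARE, at chr15:32047406-32047464 (minus strand), chr10:55737839-55737887 (plus strand) and chr5:144254965-144255023 (plus strand). The immune subunit Psmb10 and the activator Psme2 are shown for the ISRE, at chr19:50743293-50743390 (minus strand, 2 matches) and chr15:33052770-33052829 (minus strand). The motifs did not follow the roles throughout. The cutting subunit Psmb7 had no ARE, while Psma3, Psmd1, Psmd9 and the activator Psme4 had one or more. The immune subunits Psmb8 and Psmb9 had no ISRE, and the other 3 members with an ISRE were Psma4, Psmb3 and Psmd7.
Psmb5: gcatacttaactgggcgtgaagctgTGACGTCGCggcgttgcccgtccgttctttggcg
Psmb6: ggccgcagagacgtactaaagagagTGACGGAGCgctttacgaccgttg
Psmb2: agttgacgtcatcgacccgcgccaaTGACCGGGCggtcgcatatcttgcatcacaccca
Psmb10: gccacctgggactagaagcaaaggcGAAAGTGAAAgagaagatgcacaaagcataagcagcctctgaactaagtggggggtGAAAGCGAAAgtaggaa
Psme2: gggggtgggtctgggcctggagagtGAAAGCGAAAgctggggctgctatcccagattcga
A match describes these letters and was not tested as a binding site.

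Levels of the subunit genes were compared across the 12 cell types that the authors named in dorDG. They are UMIs per 10000 UMIs of the type, averaged over replicates holding 5 or more such cells, and are given as a description. The width of a profile is taken here as the level of the highest type over the median of the types, for rows that reached 0.5 UMIs per 10000 in at least 1 type. For 47 of 48 rows the mean ± SD of the highest type overlapped that of the next one. The exception was Psmd4, a ubiquitin receptor of the 19S regulator, at 1.98 ± 0.373 in BergGlia and 1.04 ± 0.27 in Oligodend1. BergGlia had the highest mean of 20 of 48 rows, but it rested on 43 cells, 4 replicates and 49756 UMIs, and 11 rows had no UMI there. In BergGlia a count of 0 allows up to 0.603 UMIs per 10000, taking 3 counts over the type as the floor, which covers counting error only. Marker genes fitted most type names. The cells labelled Mossy had 7 of 7 mural and 5 of 6 endothelial markers raised 2-fold or more over the rest, and those labelled InhibNeuron 5 of 7 granule and 4 of 6 excitatory neuron markers. Cells labelled Granule had 1 of 7 granule markers raised in that way, so the names are used here as labels.

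Among the alpha-ring genes, Psma4 had the widest and Psma5 the flattest profile. Psma4 was at 1.96 ± 1.55 UMIs per 10000 in BergGlia and 0.505 in Microglia2. Psma5 was at 0.955 ± 0.387 in ExcitNeuron, with 0.729 as the median of the 12 types and 0.157 in BergGlia as the lowest. In the constitutive beta ring, Psmb2 was at 3.73 ± 1.76 in BergGlia, 2.63 ± 1.06 in OPC (oligodendrocyte precursor cells) and 1.10 in Microglia1. Psmb1 was the flattest of that ring, at 2.28 ± 1.05 in OPC and 0.916 in Granule cells. The cutting subunits followed a common order: Psmb5, Psmb6 and Psmb7 had their 3 highest means in BergGlia, OPC and Oligodend1. Their means in Oligodend1 were 2.20 ± 1.23, 1.79 ± 0.593 and 1.74 ± 0.619 UMIs per 10000, and in InhibNeuron 0.794 ± 0.528, 0.451 ± 0.445 and 0.579 ± 0.359.

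Among the 19S genes, Psmc4 and Psmc5 had the flattest and the widest profile of the ATPases, and Psmd11 and Psmd2 those of the non-ATPase subunits. The ATPase Psmc4 ranged from 0.824 ± 0.391 UMIs per 10000 in OPC to 0.479 in ExcitNeuron, and Psmc5 from 1.10 ± 0.944 in BergGlia to 0.277 in Microglia2. The non-ATPase subunit Psmd11, a lid scaffold protein, was at 0.816 ± 0.407 in the cells labelled Mossy against a median of 0.693 over types. No Psmd11 UMI was found in BergGlia, which allows up to 0.603 UMIs per 10000. Psmd2, which scaffolds the base, was at 1.34 ± 0.901 in BergGlia and 0.356 in Microglia1. Of the assembly factors, Psmd9 was at 1.08 ± 0.465 in Oligodend2 and 0.25 in AstroSub1, and Psmg4 at 1.5 ± 1.07 in BergGlia and 0.188 in Microglia2.

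Among the activators, Psme1 had the widest and Psme3 the flattest profile, with the highest type at 5.13 and 2.29 times the median of the types. Psme1 was at 2.78 ± 1.11 UMIs per 10000 in Endothelial cells (187 UMIs), 1.62 ± 0.582 in Microglia1, 1.53 ± 0.951 in Microglia2 and 1.4 ± 0.707 in the cells labelled Mossy. It was at 0.507 ± 0.419 in OPC and at 0.16 ± 0.192 in Oligodend1. Endothelial cells and both microglial types thus lay above both oligodendrocyte types by more than 1 SD of either. Psme4 had another order, at 3.26 ± 1.52 in AstroSub1, 2.08 ± 0.452 in ExcitNeuron, 1.97 ± 0.504 in OPC and 1.04 ± 0.364 in Oligodend2. Ribosome-poor cells made up 62.7%, 80%, 27.6% and 12.6% of these types. Over all cells of both regions, Psme4 was at 2.52 in ribosome-poor and 1.13 in ribosome-rich cells, and its part in the order was not tested. Psme3 was at 0.725 ± 0.289 in ExcitNeuron and 0.207 in Granule cells.

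**Figure D1:**
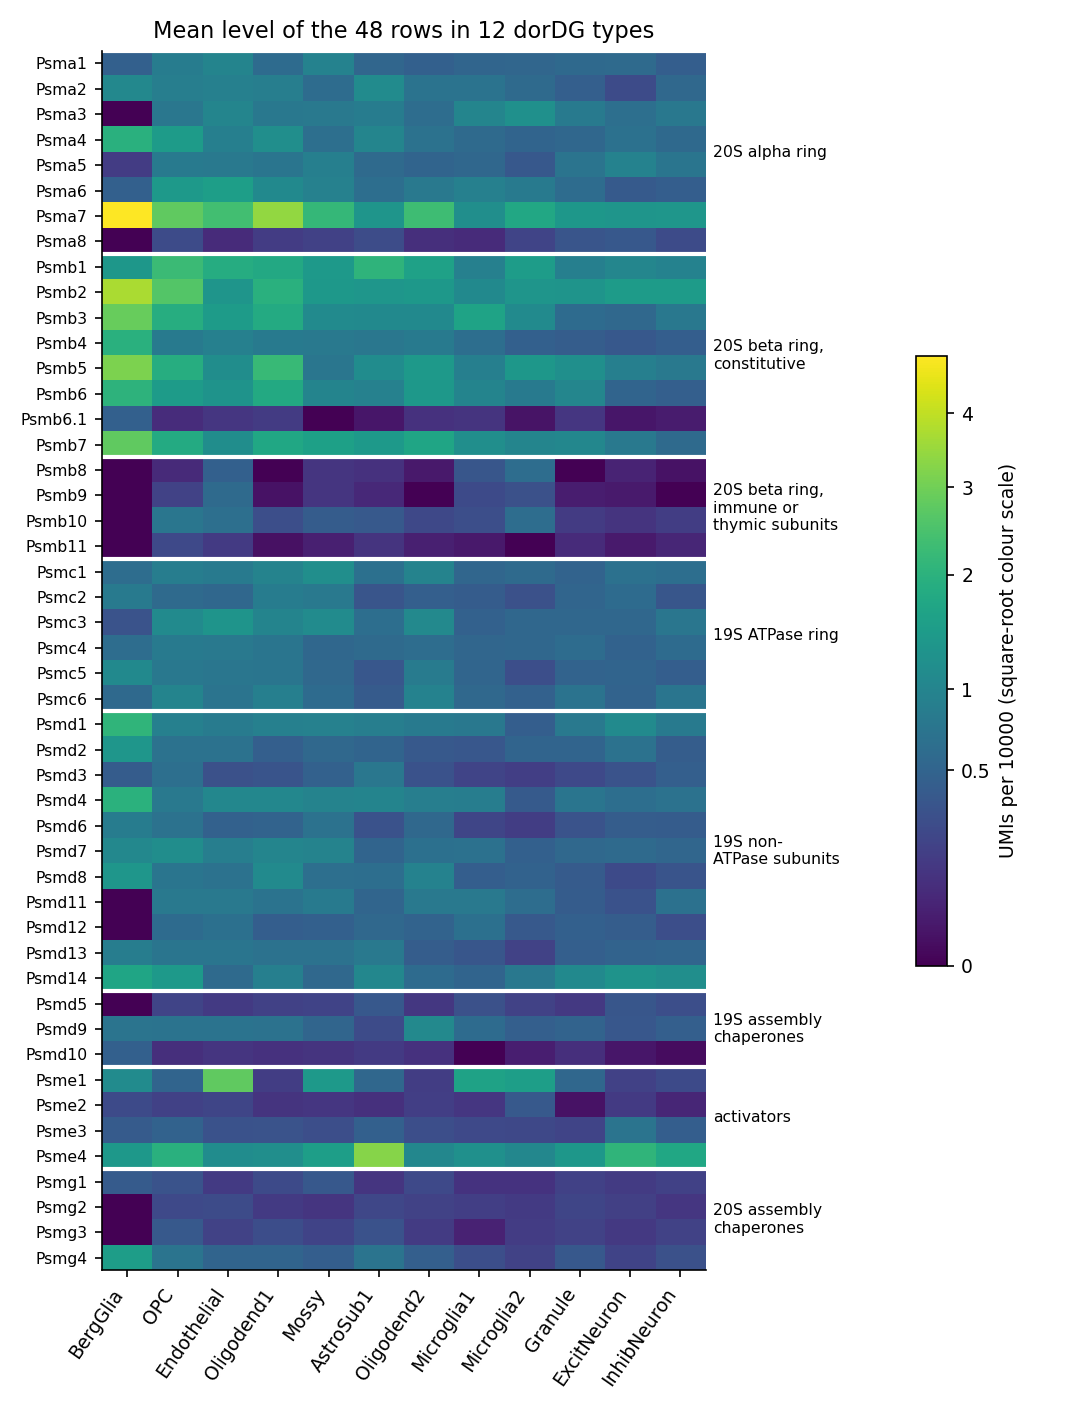
Mean level of each of the 48 rows (grouped by role) in each of the 12 dorDG cell types (columns), in UMIs per 10000 on a square-root colour scale from 0. Psme1 is brightest in Endothelial cells at 2.78, Psme4 in AstroSub1 at 3.26, and BergGlia, with 4 replicates, holds the brightest cell (Psma7) and 11 rows at 0.

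Summed over the 48 rows, the proteasome share of all UMIs was high in oligodendrocyte precursors, Oligodend1 and endothelial cells, and low in microglia. It was also low in neurons, most of which were ribosome-poor. In dorDG it was 0.435% ± 0.0698 of UMIs in OPC (SD, n = 7), above the other cells of the same replicate in 7 of 7 replicates. It was 0.387% ± 0.0768 in Oligodend1 (9 of 9 above), 0.390% ± 0.0666 in Endothelial cells (7 of 9 above) and 0.492% ± 0.170 in BergGlia (3 of 4 above). The other oligodendrocyte type, Oligodend2, was lower, at 0.318% ± 0.0310 (4 of 7 above), and among ribosome-rich cells it had 0.331% against 0.363% in the other cells (1 of 6 above). The lower end was held by Microglia1 at 0.275% ± 0.0412 and Microglia2 at 0.269% ± 0.0401, each above in 1 of 9, and by Granule at 0.254%, ExcitNeuron at 0.254% and InhibNeuron at 0.247%. Neighbours in this order did not differ beyond their SDs. Ribosome-poor cells made up 79.8%, 80% and 79.6% of the last 3 types and 9.35% of Microglia1. Among ribosome-rich cells pooled over replicates, Granule had 0.475% (24 cells), ExcitNeuron 0.488% (11 cells) and InhibNeuron 0.367% (30 cells). In the same way OPC had 0.485%, Microglia1 0.268% and Microglia2 0.291%. Of the types at the lower end, only the microglia were thus also low among ribosome-rich cells. Besides Oligodend2, the cells labelled Mossy also lay below the rest there, at 0.353% against 0.390% (1 of 6 above).

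In venDG, cells were clustered without any member gene and named "-like" by fixed markers, so the comparison there could be tested, by a two-sided exact sign-flip permutation test over replicates with p adjusted over 8 names. OPC-like cells had 0.478% ± 0.0777 of UMIs from proteasome genes against 0.318% ± 0.0477 in the other cells, higher in 9 of 9 replicates (exact p = 0.00391, adjusted 0.0156). Endothelial-like cells had 0.415% against 0.332% (8 of 9, adjusted p = 0.0156, exact permutation) and Oligodendrocyte-like cells 0.381% against 0.322% (8 of 10, adjusted p = 0.0156, exact permutation). Among ribosome-rich cells, without a test, the Oligodendrocyte-like difference was smaller, at 0.400% ± 0.0631 against 0.377% (6 of 9 above). OPC-like cells then had 0.499% against 0.373% (8 of 8 above) and Endothelial-like cells 0.419% against 0.374% (8 of 9 above). Microglia-like cells had 0.290% ± 0.0309 against 0.344% ± 0.0532, lower in 8 of 10 (adjusted p = 0.0156, exact permutation), and Excitatory neuron-like cells 0.273% against 0.350% (adjusted p = 0.0375, exact permutation). Of the Excitatory neuron-like cells, 85.7% were ribosome-poor. Pooled over replicates, the share was 0.388% in their ribosome-rich cells (27 cells) and 0.222% in their ribosome-poor cells, so this difference cannot be told apart from ribosomal content. Mural-like (0.439%), Astrocyte-like (0.317%) and InhibNeuron-like cells (0.260%) did not pass, with adjusted exact permutation p of 0.0833, 0.232 and 0.25. With 3 replicates InhibNeuron-like cells could not reach 0.05. The cutting subunits Psmb5, Psmb6 and Psmb7 summed to 6.42 ± 1.39 UMIs per 10000 in OPC-like cells against 3.80 elsewhere and to 5.84 ± 1.79 in Oligodendrocyte-like cells against 3.52 (both exact permutation, adjusted p = 0.0156).

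**Figure D2:**
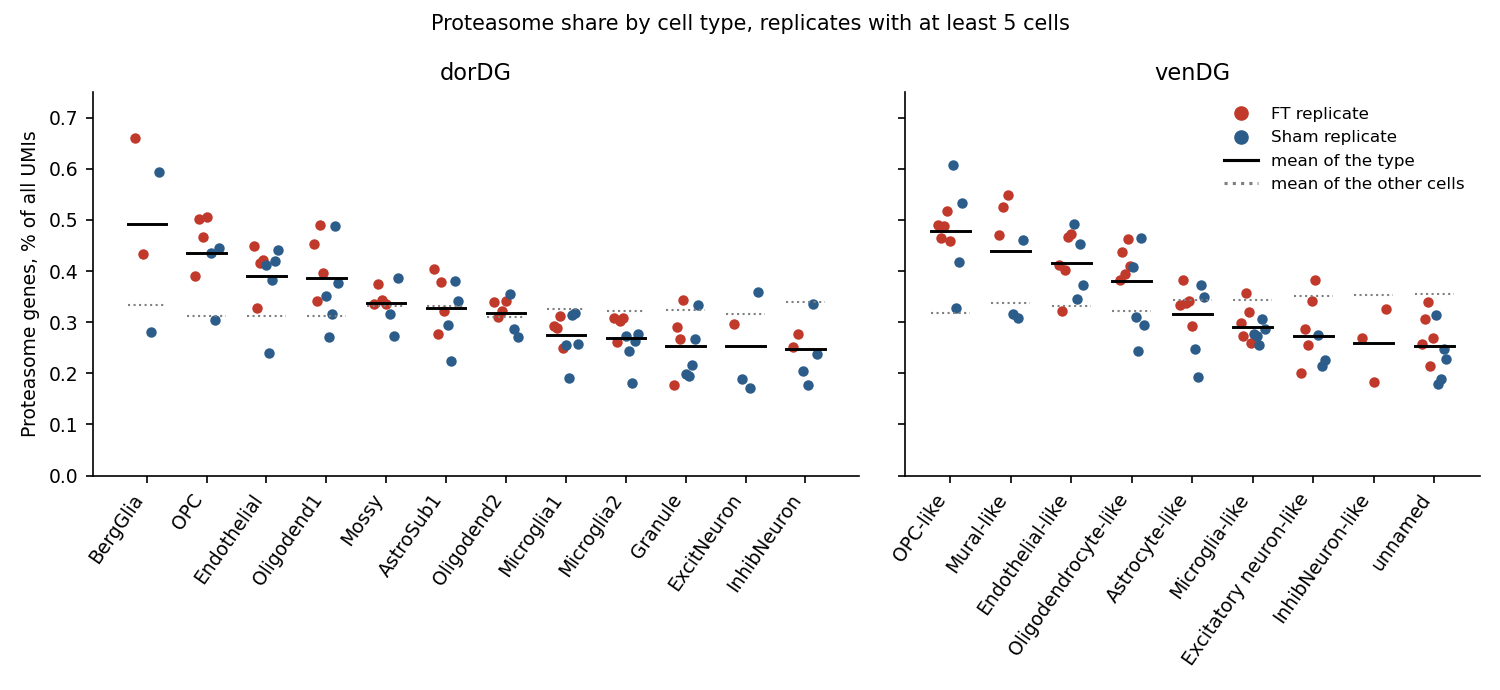
Proteasome share of UMIs (percent) in each dorDG cell type and venDG cluster name, with 1 point per replicate holding 5 or more such cells, coloured by treatment. Solid bars are the mean of the type and dotted bars that of the other cells; OPC and Oligodend1, with means of 0.435% and 0.387%, lie above their dotted bars, and neurons and microglia lie below theirs.

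The immune subunits Psmb8, Psmb9 and Psmb10 were highest in Endothelial cells and Microglia2. In dorDG their summed level was 1.69 ± 0.749 UMIs per 10000 in Endothelial cells (113 UMIs, above the other cells in 9 of 9 replicates), 1.54 ± 0.965 in Microglia2 (55 UMIs, 8 of 9) and 0.876 ± 0.334 in Microglia1 (55 UMIs, 8 of 9). OPC had 1.003 ± 0.554, and Oligodend1 had 0.297 ± 0.188. Oligodend1 was thus among the types with the most cutting subunits but low in immune subunits, whereas OPC was high in both. Immune subunits made up 35.03% of the UMIs of both kinds in Microglia2, 30.2% in Endothelial cells, 21.3% in Microglia1 and 5.29% in Oligodend1.

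The genes behind this sum differed. Psmb8 was at 0.621 ± 0.525 UMIs per 10000 in Microglia2, 0.463 ± 0.204 in Endothelial cells and 0.349 ± 0.19 in Microglia1, and at 0.118 or less in every other type. Psmb9 was at 0.576 ± 0.459 in Endothelial cells, 0.298 ± 0.313 in Microglia2, 0.246 ± 0.219 in Microglia1 and 0.186 ± 0.301 in OPC. No UMI of Psmb8 was found in Oligodend1 and none of Psmb9 in Oligodend2, which allows up to 0.0465 and 0.0459 UMIs per 10000. Psmb10 was spread more widely, at 0.748 ± 0.406 in OPC, 0.655 ± 0.403 in Endothelial cells, 0.626 ± 0.581 in Microglia2 and 0.281 ± 0.248 in Microglia1. The OPC sum thus came mostly from Psmb10 (34 of 45 UMIs).

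In venDG the same contrast passed the test. Microglia-like cells had 1.57 ± 0.443 immune subunit UMIs per 10000 against 0.678 ± 0.156 in the other cells, higher in 10 of 10 replicates (exact permutation p = 0.00195, the smallest possible, adjusted 0.00781). Endothelial-like cells had 1.86 ± 0.485 against 0.779 ± 0.147, higher in 9 of 9 (adjusted p = 0.0104, exact permutation). Oligodendrocyte-like cells had 0.322 ± 0.159 against 1.01 (lower in 10 of 10, adjusted p = 0.00781, exact permutation), and Excitatory neuron-like cells 0.138 ± 0.13 against 0.946 (lower in 8 of 8, adjusted p = 0.0156, exact permutation). Ribosome-poor cells made up 9.94% of the Oligodendrocyte-like and 85.7% of the Excitatory neuron-like cells. The Microglia-like cells also had fewer cutting subunit UMIs than the other cells, 3.18 ± 0.589 against 4.20 ± 1.09 per 10000 (adjusted p = 0.0417, exact permutation). A cluster of 31 Microglia-like cells led by Pf4 and MHC class II genes had 2.55 immune subunit UMIs per 10000, and the other 360 cells had 1.47. The gene lists of 2 other Microglia-like clusters were led by Il1b, Ccl2 and Tnf, and the part of these cells in the result was not tested.

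**Figure D3:**
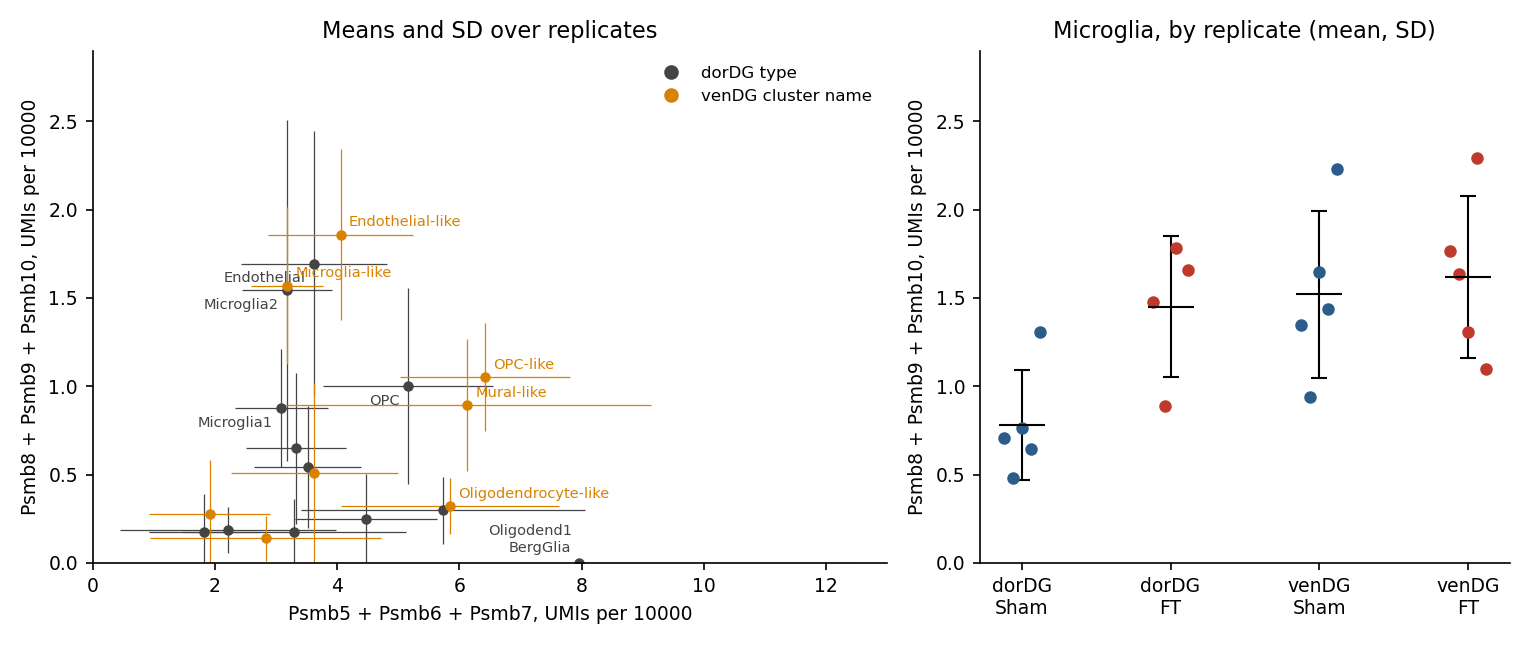
Left, mean and SD over replicates of the summed immune subunits against the summed cutting subunits, in UMIs per 10000, for each dorDG type and venDG cluster name. Right, the immune subunit level of microglia (Microglia1 and Microglia2 together in dorDG, Microglia-like in venDG) in each replicate; in dorDG 3 of the 4 FT replicates lie above all 5 Sham replicates.

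The proteasome share followed the capture reaction and the ribosomal content of the cell. In 19 of 19 replicates it was higher in ribosome-rich cells (0.372% ± 0.0415) than in ribosome-poor cells (0.201% ± 0.0282). In the 8 replicates with 2 reactions, it was 0.352% ± 0.0461 in the first and 0.216% ± 0.0347 in the second, higher in the first in 8 of 8 (sign-flip test, exact p = 0.00781 and the lowest that 8 pairs allow, adjusted 0.0313 over 4 tests of the share). Ribosome-poor cells were few in the first reactions (4.08% to 15.5%) and prevailed in the second (78.3% to 95.9%). Among ribosome-rich cells alone, the difference was 0.0474 percentage points over 7 replicates, and higher in the first in 5 of 7 (exact permutation p = 0.219). Reaction, ribosomal content and suspension cannot be told apart here.

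Of 27 members tested between the reactions (edgeR quasi-likelihood test with the replicate as a block, Benjamini-Hochberg adjusted p at most 0.2 and absolute log2 fold change at least 0.32), 25 were called, in a comparison that called 84.1% of all genes. In the first reaction 24 were higher (39.9% of all genes were), and 1 was higher in the second (44.2% of all genes were). The median log2 fold change was 1.37 over the members and −0.13 over all genes. Every one of the 7 beta-ring and 7 alpha-ring members tested was higher in the first reaction, with medians of 2.39 and 1.61, while the 6 non-ATPase members tested had a median of 0.58.

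The size of the contrast differed strongly between subunits. Psmb6 was at 0.711, 1.39 and 1.80 UMIs per 10000 in the first reactions (lowest, median, highest of 8) and at 0.157, 0.227 and 0.488 in the second, with no overlap (log2 fold change 2.95 ± 0.20, SE, edgeR adjusted p = 1.34e-08). Psma2 (log2 fold change 2.63), Psmb5 (2.50) and Psma6 (2.43) followed. Psmb7 had a log2 fold change of 1.86 and the activator Psme1 of 1.74. At the other end, Psme4 was at 0.534, 0.923 and 1.05 in the first reactions and at 1.34, 2.19 and 4.47 in the second, again with no overlap, and was lower in the first (log2 fold change −0.98 ± 0.21, SE, edgeR adjusted p = 0.000618). The smallest positive calls were Psmd13 (log2 fold change 0.47), Psma3 (0.54) and Psmd11 (0.69), whose levels per 10000 UMIs overlapped between reactions. Psmd1 (0.20) and Psmd14 (0.12) were not called. Without TMM scaling the median of all genes moved to −0.60, 20 members were called higher, and 2, Psme4 and Psmd14, were called lower. These counts belong to a comparison whose main fit called 84.1% of all genes. The share called without TMM scaling is not reported here, so the counts are not read as a result about the members.

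The immune subunits fell under the limit on low values (a mean of 0.5 UMIs per 10000) and were tested only with that limit lifted. Psmb9 then had a log2 fold change of 2.53, Psmb10 of 1.5 and Psmb8 of 1.28, all called, while Psme2 (0.72, edgeR adjusted p = 0.121) was called as well. The ratio of ribosome-rich to ribosome-poor cells was 13.9 for Psmb9 and 7.46 for Psmb6, against 0.449 for Psme4 and 0.412 for Psme3. A further list held 34 genes that work with the proteasome (ubiquitin, partners, transcription factors and class I antigen processing). Of these, 10 of 10 tested were called higher in the first reaction, where 39.9% of all genes were. Among them were Rps27a (log2 fold change 2.84) and the factor Nfe2l2 (2.64). Rps27a also counts among the ribosomal protein genes that define ribosome-rich cells here, and the reactions differed in the percentage of those cells.

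**Figure D4:**
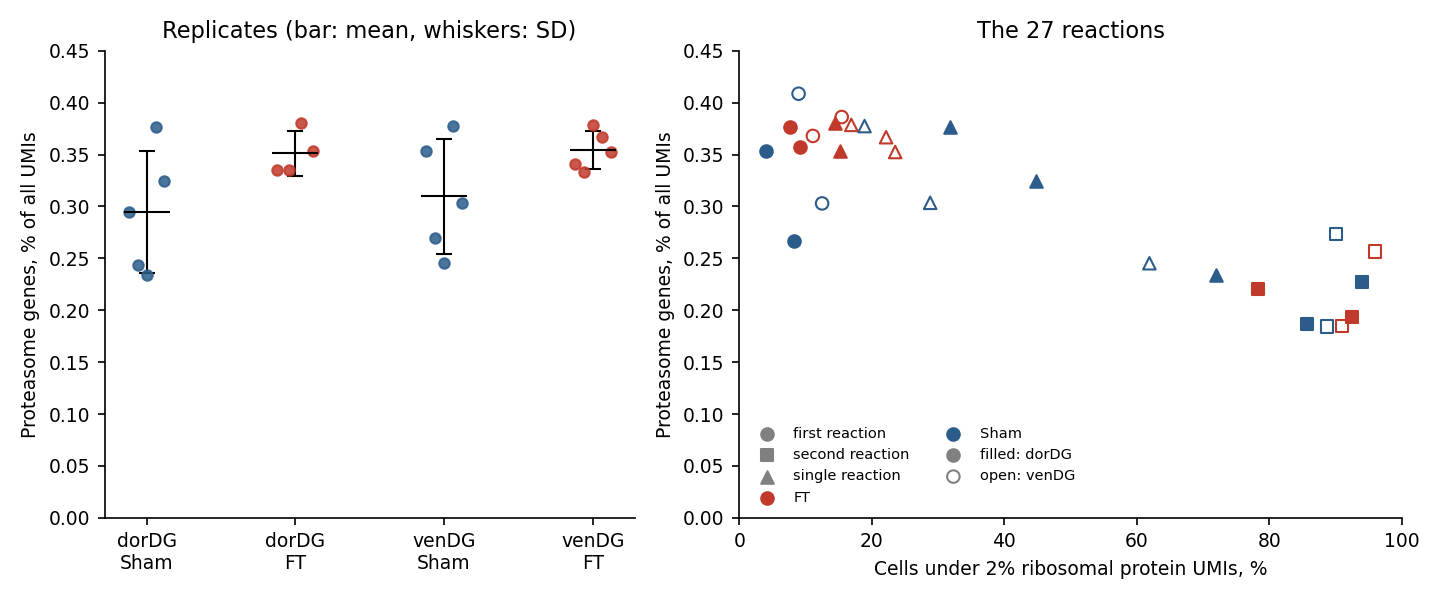
Left, proteasome share of UMIs (percent) by replicate in the 4 groups, with bars for the mean and whiskers for the SD; the Sham replicates spread from 0.234% to 0.377%. Right, the same share in each of the 27 reactions against the percentage of cells with under 2% ribosomal protein UMIs, with the first reactions at the left and the 8 second reactions at the right.

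FT was compared with Sham on sums over all cells of a replicate, where more cells of a type and more RNA per cell cannot be told apart. In dorDG the proteasome share was 0.335%, 0.335%, 0.381% and 0.354% in the FT replicates 1, 2, 4 and 5, and 0.295%, 0.243%, 0.234%, 0.377% and 0.325% in the Sham replicates 1 to 5. FT replicates lay above 4 of the 5 Sham replicates, and Sham replicate 4 lay among them. The difference of 0.0563 percentage points did not pass (exact permutation test, two-sided, p = 0.135, adjusted 0.19). Without Sham replicate 4 it was 0.0768 (exact permutation p = 0.0286), and leaving out any other replicate gave 0.0412 to 0.0639 (exact permutation p of 0.143 to 0.232). Pairing FT and Sham by number gave 0.0412, higher in FT in 4 of 4 pairs (exact permutation p = 0.125, the smallest that 4 pairs allow). In venDG the FT replicates had 0.341%, 0.333%, 0.379%, 0.367% and 0.352% and the Sham replicates 0.353%, 0.269%, 0.245%, 0.377% and 0.304%. That difference, 0.0446 percentage points, did not pass either (exact permutation p = 0.143, adjusted 0.19), and without Sham replicate 4 it was 0.0615 (exact permutation p = 0.0397), and without any other replicate 0.0285 to 0.0554 (exact permutation p of 0.0794 to 0.286). Paired by number, the venDG share was higher in FT in 3 of 5 pairs (exact permutation p = 0.25). In the second reactions alone, with 2 replicates a group and no test, the difference was −0.000305 in dorDG and −0.00829 in venDG. In the first reactions alone, also with 2 replicates a group and no test, it was 0.0565 and 0.0213. In the replicates with a single reaction, without a test, it was 0.0553 and 0.0572. The effects in the 2 regions differed by 0.0117 percentage points (permutation of treatment within region, p = 0.803, which leaves the pairing of the regions out of account). Ribosome-poor cells made up 14.5% to 42.1% of the dorDG FT replicates and 31.9% to 72% of the dorDG Sham replicates. Within ribosome-rich cells the dorDG difference was 0.0205 (exact permutation p = 0.587) and within ribosome-poor cells −0.0067 (exact permutation p = 0.571).

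Gene by gene, 6 of 31 members tested in dorDG were called, all higher in FT, where 28.6% of all genes were called and 12.4% were called higher. Against this background the count alone is no result about the proteasome. The fold changes leaned one way: 29 of 31 were above 0, with a median of 0.41 on the log2 scale against −0.04 for all genes tested. By role, the medians were 0.51 for 7 beta-ring, 0.43 for 7 alpha-ring, 0.36 for 6 ATPase and 0.17 for 8 non-ATPase members.

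The called beta-ring genes were Psmb2, Psmb3 and Psmb4, which complete the ring without cutting sites. Psmb4 was at 0.739, 0.757, 0.891 and 0.788 UMIs per 10000 in the FT replicates and at 0.479, 0.657, 0.428, 0.707 and 0.666 in the Sham replicates. These groups did not overlap (log2 fold change 0.51 ± 0.23, SE, edgeR adjusted p = 0.186). Psmb2 was at 1.97, 1.74, 1.97 and 1.47 in FT and at 1.32, 1.23, 1.18, 1.397 and 1.55 in Sham, where the groups overlapped through FT replicate 5 (0.51 ± 0.20, edgeR adjusted p = 0.171). Psmb3 was at 1.37, 1.12, 1.85 and 1.59 in FT and at 0.732, 1.04, 0.591, 1.35 and 1.42 in Sham (0.62 ± 0.28, edgeR adjusted p = 0.189).

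The called 19S genes were the ATPases Psmc1 and Psmc3 and the lid subunit Psmd8. Psmc1 was at 0.819, 0.994, 1.21 and 0.805 UMIs per 10000 in FT and at 0.741, 0.691, 0.428, 0.657 and 0.740 in Sham, again without overlap (log2 fold change 0.62 ± 0.24, SE, edgeR adjusted p = 0.170). Psmc3 was at 1.05, 1.32, 1.16 and 0.651 in FT and at 0.787, 0.795, 0.571, 0.641 and 0.888 in Sham, with FT replicate 5 inside the Sham range (0.58 ± 0.25, edgeR adjusted p = 0.182). Psmd8 was at 0.631, 0.779, 0.874 and 0.651 in FT and at 0.579, 0.346, 0.591, 0.756 and 0.444 in Sham (0.52 ± 0.23, edgeR adjusted p = 0.186).

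None of the cutting subunits was called in dorDG by edgeR, and DESeq2 called Psmb6 and Psmb7 of them. Psmb7 was at 1.38, 1.38, 1.53 and 1.42 UMIs per 10000 in FT and 1.07, 1.21, 0.713, 1.36 and 1.18 in Sham, without overlap, at a log2 fold change of 0.44 (edgeR adjusted p = 0.217). Psmb6 had a log2 fold change of 0.59 (edgeR adjusted p = 0.203), Psmb5 of 0.52 (0.275) and Psme1 of 0.50 (0.243). With Psmb4 and Psmc1, Psmb7 made 3 of 31 tested members whose FT and Sham replicates did not overlap, beside 8.21% of all genes tested. The immune subunits were tested with the limit on low values lifted, at a log2 fold change of 0.87 for Psmb10 (edgeR adjusted p = 0.293), 0.62 for Psmb8 (0.554) and 0.18 for Psmb9 (0.893), with 0.30 for Psme2 (0.759). Of 12 proteasome-related genes tested, all had a positive fold change and 1 was called, Shfm1, which encodes a small 19S subunit (log2 fold change 0.68, edgeR adjusted p = 0.168).

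The number of calls in dorDG changed with single replicates and with the tool. Leaving out FT replicate 4 or 5 or Sham replicate 1, 3 or 5 left 0 of them, leaving out FT replicate 1 left 1, FT replicate 2 gave 4, Sham replicate 2 gave 9 and Sham replicate 4 gave 18. The shares of all genes called in these fits were 43% and 46.8% when Sham replicates 4 and 2 were dropped, 22.8% and 11.1% when FT replicates 2 and 1 were, and 0.0235% or less in the others. DESeq2 called 15 of 31 members, all higher in FT, where it called 43.3% of all genes, 20.4% higher. EdgeR without TMM scaling called 1, Psmc1, where 26.5% of all genes were called. With the replicate number as a block, edgeR called 0 members and 0% of all genes, with 4 members and 20.8% of all genes at an unadjusted p under 0.05. Within ribosome-rich cells no member was called by edgeR, with 0 at an unadjusted p under 0.05, and the median log2 fold change of the members was 0.08.

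In venDG no member was called by edgeR, where 0% of all genes were, although 3 members and 236 of 4079 genes had an unadjusted p under 0.05. DESeq2 called 0 members as well. The 3 were Psmb7 (log2 fold change 0.50 ± 0.19, SE, edgeR adjusted p = 0.764), Psmb5 (0.47 ± 0.21) and Psmd8 (0.45 ± 0.20). Psmb7 was at 1.67, 1.59, 1.54, 1.20 and 1.83 UMIs per 10000 in FT and at 1.20, 1.02, 0.772, 1.41 and 1.003 in Sham. Its groups overlapped through FT replicate 4 and Sham replicate 4. Of 31 members, 24 had a positive fold change, with a median of 0.17, and no member's groups were apart, beside 0.735% of all genes. Psmb6 had a log2 fold change of 0.16 and Psme1 of −0.01, and with the limit lifted Psmb8 had 0.37, Psmb9 −0.43, Psmb10 0.25 and Psme2 −0.63. Of 11 related genes tested, 0 were called and 8 were above 0, among them Shfm1 (log2 fold change 0.21) and Rps27a (0.21). The interaction of region and treatment had 0 members called of 31 by edgeR and 0 by DESeq2, 0 at an unadjusted p under 0.05, and 0% of all genes called, so no difference in response between dorDG and venDG was detected.

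**Figure D5:**
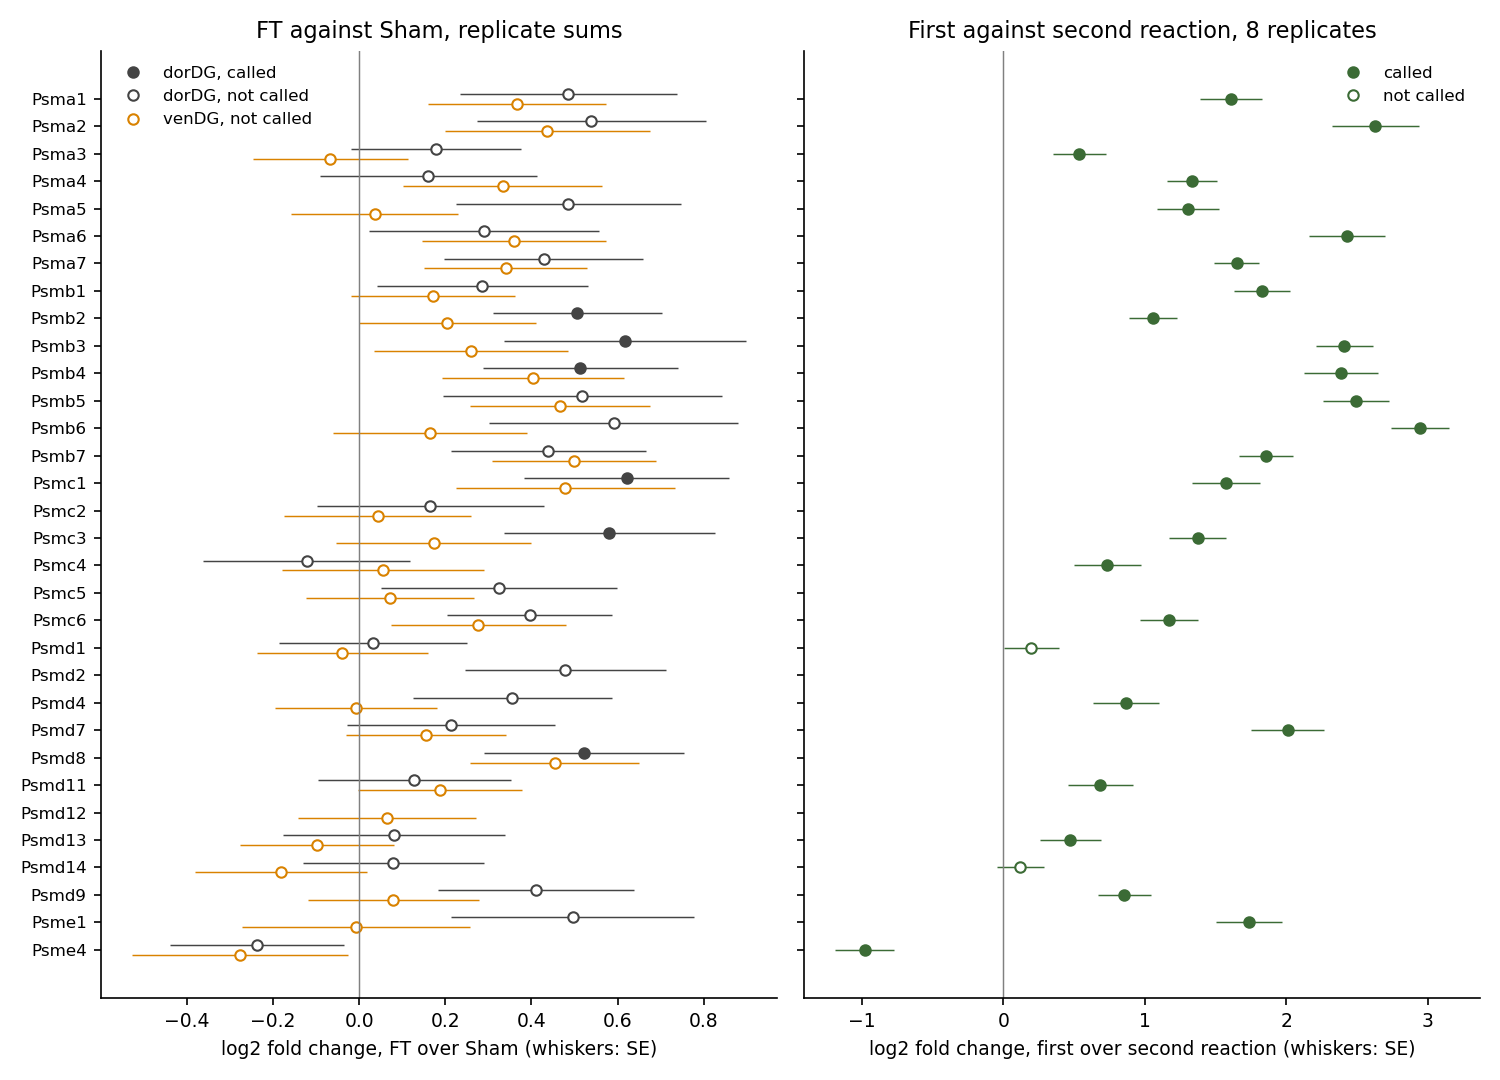
Log2 fold change with its SE for each member tested, ordered by role, of FT against Sham in dorDG and venDG (left) and of the first against the second reaction (right); filled points are called. On the left 29 of 31 dorDG values lie above 0 and 6 are called, and on the right Psme4 is the 1 called member below 0.

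Within single cell types, 1 member was called over 9 dorDG types and 0 over 7 venDG names, where 0.686% of 33662 dorDG tests and 0.37% of 26744 venDG tests were called. The call was Psmb4 in Oligodend1, a type in which 6.15% of genes were called. Psmb4 was at 1.396, 0.625, 1.77 and 1.01 UMIs per 10000 in the Oligodend1 cells of the FT replicates and at 0.329, 0.551, 0.886, 0.483 and 0.285 in those of Sham, with 2 to 13 UMIs in each. The groups overlapped (log2 fold change 1.47 ± 0.48, SE, edgeR adjusted p = 0.158), and DESeq2 and the fit on ribosome-rich cells did not call it. In Oligodend1 the cutting subunits Psmb5, Psmb6 and Psmb7 had log2 fold changes of 0.57, 0.31 and 0.40 and were not called (edgeR adjusted p of 0.487, 0.703 and 0.611). DESeq2 called 0 members in any venDG name. The venDG Astrocyte-like cells had 6 of 29 members at an unadjusted p under 0.05, where 16.1% of all genes were, and in each of the other names 0 or 1 member was.

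The regions did not differ in proteasome expression beyond the replicate spread. The share was 0.32% ± 0.0529 in dorDG (n = 9) and 0.332% ± 0.0455 in venDG (n = 10), a difference of −0.00913 percentage points weighted over treatments (permutation within treatment, p = 0.631, adjusted 0.631). Pairing the regions by replicate number gave −0.00709, lower in dorDG in 5 of 9 pairs (exact permutation p = 0.449). No member of 31 was called by edgeR or DESeq2, and 0 had an unadjusted p under 0.05, where 0.216% of all genes were called. The members' median log2 fold change was −0.07. Psme1 had −0.28 (edgeR adjusted p = 0.922), Psmb5 −0.26, Psmb6 −0.12 and Psmb7 −0.09. With the limit lifted, Psmb8 had −0.86 (edgeR adjusted p = 0.506), Psmb9 −0.50, Psmb10 −0.31 and Psme2 −0.09. Of 11 related genes 0 were called, and B2m had a log2 fold change of −0.25 and Shfm1 of −0.15.

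In dorDG microglia the immune subunits were higher in FT before the adjustment over regions. Their summed level was 1.48, 0.886, 1.78 and 1.66 UMIs per 10000 in the FT replicates (from 25, 8, 21 and 18 UMIs) and 0.705, 0.482, 0.766, 0.647 and 1.31 in the Sham replicates (from 12, 6, 3, 4 and 13 UMIs). In FT 3 of 4 replicates lay above every Sham replicate, and FT replicate 2 lay within the Sham range. The means were 1.45 ± 0.398 and 0.781 ± 0.312, a difference of 0.671 (exact permutation test, two-sided, p = 0.0397, adjusted 0.0794 over the 2 regions). Pairing FT and Sham by number gave a difference of 0.667 (exact permutation p = 0.125, the smallest that 4 pairs allow). These microglia pool Microglia1 and Microglia2, and the mix differed. Microglia2, the type with the higher immune subunit level per 10000 UMIs, held 28.7% to 56.5% of the microglial UMIs in FT and 17.1% to 32.5% in Sham. Within Microglia1 the level was 1.09 ± 0.245 in FT and 0.707 ± 0.312 in Sham, a difference of 0.380 (exact permutation p = 0.0952). Within Microglia2 it was 2.09 ± 0.834 and 1.11 ± 0.896, a difference of 0.985 (exact permutation p = 0.119). Leaving out 1 replicate at a time gave exact permutation p of 0.0179 to 0.0714. It was above 0.05 in 7 of 9 cases, without FT replicate 1, 4 or 5 and without Sham replicate 1, 2, 3 or 4. By gene, Psmb10 was at 0.652 ± 0.14 in FT and 0.219 ± 0.273 in Sham, Psmb8 at 0.508 ± 0.274 and 0.344 ± 0.227, and Psmb9 at 0.292 ± 0.0737 and 0.218 ± 0.206. Psme1 was at 1.73 ± 0.299 and 1.48 ± 0.405. Ribosome-poor cells made up 3.13% to 33.3% of these microglia in FT and 4.76% to 58.8% in Sham.

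In venDG the immune level of Microglia-like cells was 1.76, 1.64, 1.31, 2.29 and 1.10 UMIs per 10000 in FT and 1.35, 0.939, 1.65, 1.44 and 2.23 in Sham. The groups overlapped throughout, with means of 1.62 ± 0.459 and 1.52 ± 0.474 (exact permutation p = 0.722). The effects in the 2 regions differed by 0.57 UMIs per 10000, which did not pass (permutation of treatment within region, p = 0.188), so a response particular to dorDG microglia was not shown. That permutation leaves the pairing of the regions out of account.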

How the data were processed

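The authors deposited raw counts of UMIs per gene and cell for each region, made with Cell Ranger 2.1.0 from 10x Genomics 3′ libraries (108 libraries from 27 capture reactions in 19 replicates) after they filtered cells. The genome build behind the counts is not given in the sources used here. Their dorDG annotation, deposited as a table of other per-cell information, gave the cell type names. Counts were taken as deposited and summed per replicate. From venDG, 170 columns with an unexplained suffix, 167 of which repeat a kept barcode, were left out. The authors' normalized values were not used. The study states filters on genes, UMIs and mitochondrial share, and none was added. No doublet caller was run.

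Totals per replicate ran from 220162 UMIs upwards, and intervals cover counting error only. Replicates of a group differed beyond counting noise in all 36 pairs (chi-square per degree of freedom 2.97 to 17.1). The sources used here do not state the strand of the reads, and counts at overlapping antisense genes were not examined. Of 47 members, 19 have copies named in RefSeq (52 in all), so their counts are uncertain.

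The venDG cells were clustered with scanpy 1.11.5 without member genes (2000 variable genes, 30 components, 15 neighbours, Leiden resolution 2). A cluster was named from at least 3 markers at least 2-fold above other cells, leading the next type by at least 2 markers, a lead set after the clusters were seen. Of 28 clusters, 7 with 367 cells stayed unnamed.

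Tests were edgeR 4.0.16 (quasi-likelihood, TMM) in R 4.3.3 on genes averaging 0.5 or more UMIs per 10000. Calls needed a Benjamini-Hochberg adjusted p of 0.2 or less and a fold change of 1.25 or more in either direction (0.32 on the log2 scale). DESeq2 1.42.0 was the alternative. Shares used exact permutation tests at 0.05. The edgeR script was tested on simulated data. Same-numbered dorDG and venDG replicates deviated together (correlations of 0.113 to 0.564 in 9 pairs), so the numbers pair the regions. Named genes are all called members where at most 8 were called, otherwise the 4 highest and 4 lowest log2 fold changes among the called, always the catalytic subunits, Psme1 and Psme2, the widest and flattest dorDG profile of each role, and the 3 lowest p of the related genes, of which some are not reported here. Members, lists, the 2% ribosomal limit and the tests were chosen with earlier results of these data known.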

Additional observations from a re-analysis of the deposited data

Results flagged for a closer look

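Of 103 groups of 4 to 10 replicates examined, 6 had a replicate whose gap to its nearest neighbour was a large part of the group's range by Dixon's criterion at the 95% level, where chance flags about 1 in 20 groups. In the immune subunits, in UMIs per 10000, Sham replicate 5 was highest of 9 in cells labelled Granule at 0.570, Sham replicate 4 highest of 6 in cells labelled InhibNeuron at 0.598, FT replicate 5 highest of 9 in venDG Astrocyte-like cells at 1.69, and Sham replicate 3 lowest of 9 in venDG OPC-like cells at 0.323. The Psmb6 level of venDG FT replicate 3, 1.55, was the highest of 5, and the Psmc1 level of dorDG Sham replicate 3, 0.428, was the lowest of 5.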

How the results depend on the processing

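Of 220 alternative values over 14 results, 180 were counted as kept, and 6 had the opposite sign, none past the threshold. A tested value was kept if it had the same direction and side of the threshold. A value without a test was kept if it lay within the SD of the main result. A count of called members was kept if equal or similar to the main count, including 0 in both, as in all 19 region fits with 1 replicate left out. The cause was not tested for the values that were not kept. The dorDG share difference between FT and Sham was −0.00668 in ribosome-poor cells and −0.000305 in second reactions alone, and ranged from 0.0412 to 0.0768 percentage points with 1 replicate left out, and the venDG one from 0.0285 to 0.0615, with −0.00829 in second reactions alone. The difference between the regions was 0.00226 in single reactions alone. The difference between reactions was 0.0474 in ribosome-rich cells, an alternative chosen after seeing the data. For immune subunits in dorDG microglia the difference was 0.380 in Microglia1 and 0.985 in Microglia2 alone, neither past the threshold and both chosen after seeing the data. With 1 replicate left out the range was 0.560 to 0.859, and in venDG −0.0679 to 0.279, turning negative without FT replicate 4 (−0.0679) or Sham replicate 2 (−0.0447). Whether replicate numbers pair FT with Sham samples was not settled (correlations of −0.248 to 0.398 in 9 pairs, own number best in 4). The methods state parallel handling of Sham and FT only for the bulk assays. In the labels, reaction names run on by replicate number through both treatments. With a replicate block the microglia difference in dorDG was 0.667 (exact permutation p = 0.125, the smallest for 4 pairs), 0 members were called in dorDG and 2 in venDG types (Psmb5 and Psmc1 in Astrocyte-like cells). Over the venDG types 314 of 26744 tests of all genes were called with the block. The block changed no other call and no call between regions. Members called in dorDG were 6, and 0 at an adjusted p of 0.05, 1 without TMM, 0 with no filter on low values, 15 by DESeq2, 0 in ribosome-rich cells, and 0 to 18 with 1 replicate left out. Between reactions 43 were called with no filter and 25 to 27 with 1 replicate left out, in a comparison whose main fit called 84.1% of all genes. The shares of all genes called in those alternative fits are not reported here, so these counts are not read as results about the members. Over dorDG types 0 were called at an adjusted p of 0.05, with no filter, by DESeq2 and in ribosome-rich cells. Over venDG types 1 was called with no filter (Psmd5 in Microglia-like cells) and 2 with at least 10 cells per replicate (Psmb3 and Psmb5 in Astrocyte-like cells). Of all genes, 67 of 111825 and 64 of 17936 tests were called in these 2 settings. Depth limits the immune subunits, with 3 to 25 UMIs per dorDG microglia sample, and BergGlia.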
